A study of Mus musculus with 2 samples.

Results

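Notch ligands, receptors and effectors were measured in single cells of the mouse eye at e13.5 as 10 genes chosen by name (Dll1, Dll3, Dll4, Jag1, Notch1, Notch2, Notch3, Hes1, Hes5 and Hey1), out of 31053 genes in the count table. All 10 had UMIs (unique molecular identifiers, each marking 1 captured transcript) in both libraries, from 339 for Dll4 in the mutant to 15488 for Hes1 in the mutant. The control library came from Myrf fl/fl eyes. The mutant library came from Rx>cre Myrf fl/fl eyes, in which Cre made from an Rx transgene removes the floxed Myrf alleles in the eye field lineage. The floxed alleles are therefore shared by both groups. Each library pooled 3 samples, and cornea, lens and optic nerve had been taken off before dissociation. The control library held 63483835 UMIs in 6039 barcodes and the mutant library 75228861 UMIs in 6754 barcodes. After filtering, 5468 control and 6300 mutant cells were kept, with medians of 11332 and 11154 UMIs. By the transcripts of sex-linked genes, 1964 control cells came from female and 1138 from male embryos, against 1559 and 1764 mutant cells, and the other cells were not assigned.

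Notch signalling passes between cells in contact. Delta-like and Jagged ligands on 1 cell bind Notch receptors on its neighbour, the receptor is cleaved, and its intracellular domain joins the DNA-binding protein Rbpj to switch on Hes and Hey repressors. In the embryonic retina these repressors hold cells as progenitors by acting against the proneural genes, while cells that begin to differentiate make the Delta-like ligands. Dll3 is the exception among the ligands, since it acts within the cell that makes it and does not activate receptors on neighbours.

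The upstream sequence of the members was searched for letters that such factors recognise. RefSeq windows of 250 bases before the transcription start (build GRCm38.p6) were given for 8 of the 10 genes, all but Hes1 and Hey1. The windows of Hes5, an effector, and of the ligands Dll1 and Dll3 are shown because they hold a match, and that of the ligand Dll4 because it holds none. They are printed 5′ to 3′ on the gene's strand, with matches in capitals. In Hes5 the capitals mark TGGGAA, the core of the Rbpj motif, or its reverse complement. In Dll1 and Dll3 they mark CAGCTG, an E-box of the kind bound by proneural factors.
Hes5 (chr4:154960673-154960922, plus strand): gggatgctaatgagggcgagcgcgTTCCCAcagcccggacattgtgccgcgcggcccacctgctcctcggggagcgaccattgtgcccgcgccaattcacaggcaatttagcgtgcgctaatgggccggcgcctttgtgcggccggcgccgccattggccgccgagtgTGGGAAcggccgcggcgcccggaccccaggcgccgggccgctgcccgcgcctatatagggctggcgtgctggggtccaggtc
Dll1 (chr17:15376933-15377182, minus strand): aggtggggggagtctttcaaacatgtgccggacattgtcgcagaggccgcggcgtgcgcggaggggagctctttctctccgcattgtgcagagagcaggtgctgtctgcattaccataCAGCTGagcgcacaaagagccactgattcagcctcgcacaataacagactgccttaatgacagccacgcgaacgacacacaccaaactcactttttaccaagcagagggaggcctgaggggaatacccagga
Dll3 (chr7:28301786-28302035, minus strand): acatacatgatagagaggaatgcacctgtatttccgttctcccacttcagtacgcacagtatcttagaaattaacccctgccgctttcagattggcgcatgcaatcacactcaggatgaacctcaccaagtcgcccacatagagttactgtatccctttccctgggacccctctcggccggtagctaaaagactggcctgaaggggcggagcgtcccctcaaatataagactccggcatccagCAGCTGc
Dll4 (chr2:119325534-119325783, plus strand): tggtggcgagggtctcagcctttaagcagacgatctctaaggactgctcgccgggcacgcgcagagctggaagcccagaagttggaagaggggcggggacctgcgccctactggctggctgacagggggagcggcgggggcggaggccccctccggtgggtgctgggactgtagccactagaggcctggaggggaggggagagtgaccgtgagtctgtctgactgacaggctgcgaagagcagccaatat
Hes5 held 2 matches of the Rbpj core, 1 on either strand, starting 82 and 226 bases upstream, and no other member with a window had one. The core is found on either strand in 21.6% of 32851 windows. Both matches were preceded by a G, an extended form that 5.42% of windows hold. The E-box occurred in Dll1 (1 of its 2 annotated starts), Dll3 and Jag1, against 13% of all windows, and not in Dll4, Notch1, Notch2, Notch3, Hes5 or the other Dll1 start. A second E-box, CAGATG, occurred in no member against 14.4% of all windows. A match is a description of the letters, not a measured binding site. In build GRCm38 the ligand genes lie with Dll1 at chr17:15367354-15376872, Dll3 at chr7:28293553-28302238, Dll4 at chr2:119325784-119335962 and Jag1 at chr2:137081456-137116644. The RefSeq starts used for the Dll3 and Jag1 windows lie inside these gene spans, and so do the E-boxes found there. The receptor genes lie with Notch1 at chr2:26457903-26516663, Notch2 at chr3:98013527-98150361 and Notch3 at chr17:32120820-32166852, and the effector genes with Hes1 at chr16:30064384-30067796, Hes5 at chr4:154960923-154962371 and Hey1 at chr3:8663359-8667256.

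Cells were clustered without the members and the other pathway genes among the variable features. From marker lists, 26 of 29 clusters received a name, giving 14 classes called X-like. The 3 unnamed clusters held 743 control and 638 mutant cells, with medians of 765 and 788 UMIs. The classes included retinal progenitor-like (1609 control and 1682 mutant cells), periocular mesenchyme-like (1525 and 1973), ganglion cell-like (329 and 461), red blood cell-like (208 and 488), neurogenic precursor-like (297 and 352) and retinal pigment epithelium (RPE)-like cells (257 and 155). No ciliary margin, optic stalk, pericyte or lens cluster was named. All cells of a class were added up within a library, and a level in CPM states how many of each 1000000 UMIs so collected belonged to the gene. With 1 library per genotype there is no replicate spread, so no test was made, and the 95% intervals in parentheses cover counting error only. Levels are compared for 1 gene across classes, not between genes, whose capture differs.

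In the targeted gene, Myrf had 73.9 CPM in control RPE-like cells (155 UMIs) and 20.05 CPM in mutant RPE-like cells (30 UMIs), a log2 ratio of -1.84 (-2.50 to -1.31). In retinal progenitor-like cells 19 control and 3 mutant UMIs of Myrf were counted. In periocular mesenchyme-like cells, which lie outside the eye field, Myrf stood at 2.65 CPM in the control and 2.49 CPM in the mutant. The lower Myrf level in the mutant RPE-like cells is in keeping with the labels. The 2 libraries had 72 barcodes in common, and leaving out these barcodes (69 control and 67 mutant cells) moved none of 50 member ratios by more than 0.0247 on the log2 scale and none of the 8 class counts given below.

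The Delta-like ligands were concentrated in cells that had begun neurogenesis. Neurogenic precursor-like cells had 66.0 CPM of Dll1 (58.1 to 74.7) in the control against 64.2 CPM (57.0 to 72.1) in the mutant, and held 47.9% and 52.7% of all its UMIs. Retinal progenitor-like cells had 7.28 CPM of Dll1 in the control and 6.64 CPM in the mutant. The amacrine or horizontal-like cells came next in the control, with 58.5 CPM (40.3 to 82.1) against 37.3 CPM (24.4 to 54.6) in the mutant. In the control the interval of that class overlapped with that of neurogenic precursor-like cells, so the order of the leading pair is not resolved there. Muscle-like cells also carried Dll1, with 31.4 CPM from 19 control UMIs and 10.2 CPM from 7 mutant UMIs.

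Dll4 was the most restricted ligand, with 74.1% of its control UMIs and 72.9% of its mutant UMIs in neurogenic precursor-like cells. Its level there was 71.3 CPM (63.0 to 80.2) in the control and 55.1 CPM (48.4 to 62.4) in the mutant. Retinal progenitor-like cells had 0.620 CPM in the control and 0.784 CPM in the mutant. Outside the retina, Dll4 stood at 22.7 CPM (16.3 to 30.9) in control and 16.1 CPM (10.8 to 23.1) in mutant endothelial-like cells, where it is known as the ligand of vascular sprouting. No Dll4 UMI was counted in the amacrine or horizontal-like cells of either library, where 3 UMIs would be 5.32 CPM in the control and 4.30 CPM in the mutant.

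Dll3 had its highest level in photoreceptor precursor-like cells, at 196 CPM (151 to 250) in the control and 148 CPM (109 to 196) in the mutant, from 27 and 30 cells. Neurogenic precursor-like cells followed with 74.9 CPM (66.5 to 84.1) and 62.9 CPM (55.7 to 70.6). Ganglion cell-like cells kept 43.4 CPM in the control and 38.9 CPM in the mutant, while retinal progenitor-like cells had 3.93 CPM and 2.98 CPM. The 3 classes did not overlap in the control.

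Jag1, the Jagged ligand of the set, had another distribution. Its highest level lay in the Schwann or neural crest-like class, with 122 CPM (86.1 to 168) over 22 control cells and 110 CPM (84.0 to 140) over 38 mutant cells. Periocular mesenchyme-like cells held the largest share of Jag1 UMIs of any class, namely 51.7% in the control and 46.2% in the mutant. In the control the levels of surface ectoderm-like (39.3 CPM), neurogenic precursor-like (32.7 CPM) and periocular mesenchyme-like cells (32.5 CPM) were not separated by their intervals.

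**Figure D1:**
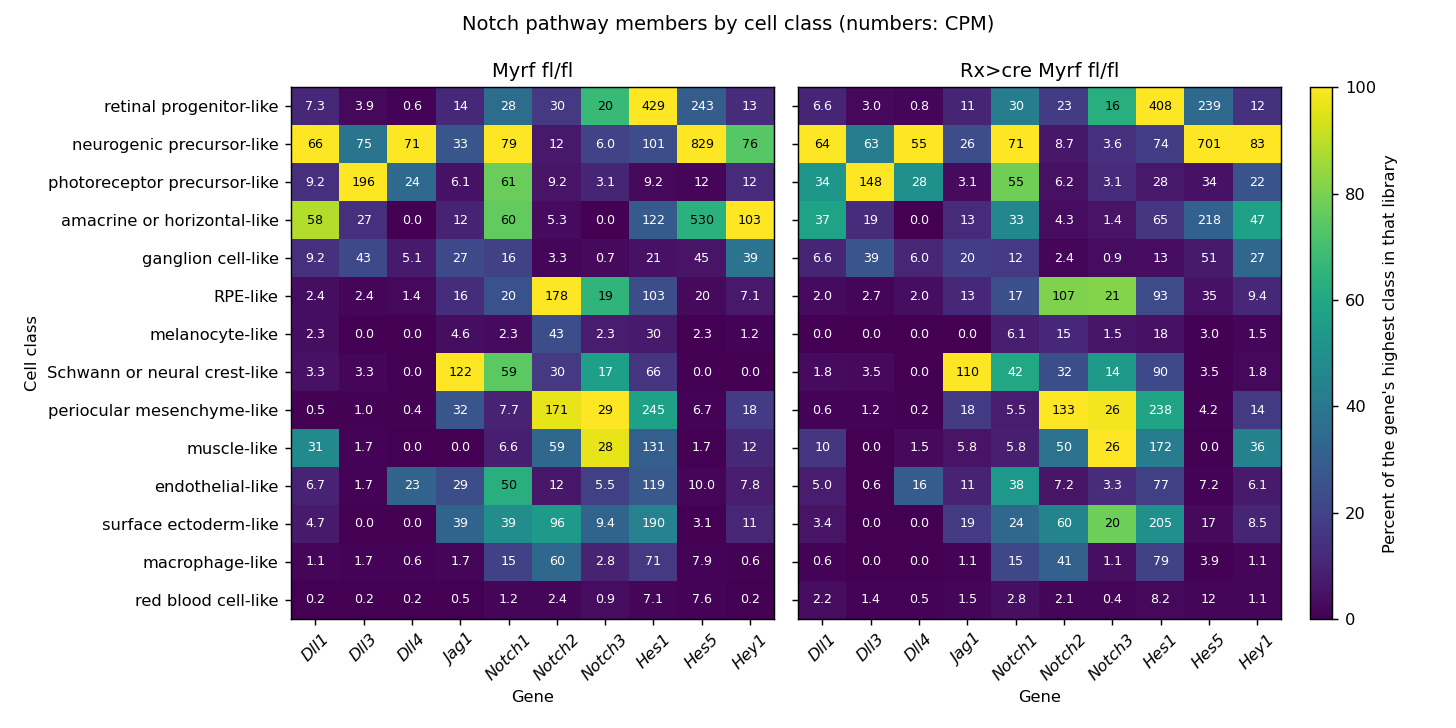
Each square gives the CPM of a gene (columns) in a cell class (rows), with control on the left and mutant on the right, and its colour gives the level as a percent of the gene's highest class in that library. Dll1, Dll4, Notch1 and Hes5 peak in neurogenic precursor-like cells in both libraries, Hes1 in retinal progenitor-like cells, and Notch2 in RPE-like cells of the control and periocular mesenchyme-like cells of the mutant.

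The receptors divided between neural and mesenchymal classes. Notch1 was highest in neurogenic precursor-like cells, at 79.4 CPM (70.7 to 88.8) in the control and 70.9 CPM (63.3 to 79.1) in the mutant. Retinal progenitor-like cells had 28.1 CPM and 29.8 CPM, and by their number held 40.0% and 42.4% of all Notch1 UMIs. Photoreceptor precursor-like, amacrine or horizontal-like and Schwann or neural crest-like cells of the control lay at 61.1, 60.2 and 59.5 CPM, with intervals that overlapped with the leading class. Endothelial-like cells had 49.9 CPM in the control and 37.8 CPM in the mutant, and periocular mesenchyme-like cells 7.66 CPM and 5.54 CPM.

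Notch2 was highest outside the neural classes. In the control it stood at 178 CPM (160 to 197) in RPE-like and 171 CPM (165 to 176) in periocular mesenchyme-like cells, which were not separated. Retinal progenitor-like cells had 29.6 CPM and neurogenic precursor-like cells 12.1 CPM. Ganglion cell-like cells had 3.31 CPM. Notch3, a receptor known from vascular mural cells, was at 29.2 CPM (26.9 to 31.6) in control periocular mesenchyme-like cells, 28.1 CPM (16.4 to 44.98) in muscle-like cells and 19.7 CPM (17.8 to 21.8) in retinal progenitor-like cells. In the mutant these levels were 25.7, 26.2 and 16.5 CPM. Over the 14 classes of both libraries (28 points that share libraries and class totals), log2 levels of Notch2 and Notch3 had a Pearson r of 0.77, whereas Notch1 and Notch2 had an r of -0.25. These values describe the classes and carry no test.

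The effectors Hes1 and Hes5 had different orders of classes. Hes1, a repressor of proneural genes, was highest in retinal progenitor-like cells, at 429 CPM (420 to 438) in the control and 408 CPM (399 to 417) in the mutant. In neurogenic precursor-like cells it stood at 101 CPM (91.0 to 112) and 73.8 CPM (66.1 to 82.2). Periocular mesenchyme-like cells had 245 CPM and 238 CPM of Hes1, and surface ectoderm-like cells 190 CPM and 205 CPM.

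Hes5, the effector held to depend most closely on Notch in neural tissue, was higher in neurogenic precursor-like than in retinal progenitor-like cells. Neurogenic precursor-like cells had 829 CPM (800 to 858) in the control and 701 CPM (677 to 726) in the mutant, while retinal progenitor-like cells had 243 CPM (236 to 250) and 239 CPM (232 to 246). Amacrine or horizontal-like cells had 530 CPM (471 to 593) in the control and 218 CPM (185 to 256) in the mutant. Periocular mesenchyme-like cells had 6.73 and 4.22 CPM. A class not known to express Hes5, red blood cell-like, had 7.57 CPM in the control, where 81.25% of the 32 UMIs came from 1 cell, and 11.8 CPM in the mutant, where 24.8% of the 121 UMIs did.

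Hey1, a related repressor, was at 103 CPM (78.0 to 133) in control amacrine or horizontal-like cells, against 47.3 CPM (32.6 to 66.5) in the mutant. Neurogenic precursor-like cells had 76.2 CPM (67.7 to 85.5) in the control and 82.9 CPM (74.7 to 91.8) in the mutant. The intervals of these 2 classes overlapped in the control, and neurogenic precursor-like cells had the higher level in the mutant. Ganglion cell-like cells had 39.0 CPM and 27.3 CPM.

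Within neurogenic precursor-like cells the members did not peak together. Cluster 14 (148 control and 150 mutant cells) was led by Neurog2, Atoh7 and Hes6, and cluster 13 (149 and 202 cells) by Gal, Atoh7 and Gadd45a, with Isl1 and Tubb3 among its leading genes. Cluster 13 was not clearly separated from ganglion cells by its markers. Its mean log2 level over the median cluster was 2.65 for the neurogenic precursor list and 2.67 for the ganglion cell list, and it took its name from Atoh7 and Gadd45a among its 10 leading genes, against Isl1 alone from the ganglion cell list. Dll1 was at 94.7 CPM (80.8 to 110) in control and 114 CPM (98.7 to 131) in mutant cluster 14, and at 42.4 CPM (34.1 to 52.2) and 32.0 CPM (25.6 to 39.4) in cluster 13. Dll4 was at 122 CPM (106 to 140) and 90.1 CPM (76.6 to 105) in cluster 14, and at 29.6 and 32.3 CPM in cluster 13. In both libraries Dll1 and Dll4 were thus higher in cluster 14, beyond counting error.

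Notch1 followed the same order, with 99.98 CPM against 62.5 CPM in the control and 91.8 CPM against 57.3 CPM in the mutant. Hey1 had the reverse order, at 33.7 CPM in cluster 14 and 111 CPM in cluster 13 of the control, and at 23.2 and 122 CPM in the mutant. Hes5 was high in both, at 772 CPM in cluster 14 and 875 CPM in cluster 13 of the control, and at 703 and 700 CPM in the mutant. In ganglion cell-like cluster 17, led by neurofilament genes, Hes5 was at 16.2 CPM in the control and 14.4 CPM in the mutant, and Dll3 still at 46.8 and 44.1 CPM.

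**Figure D2:**
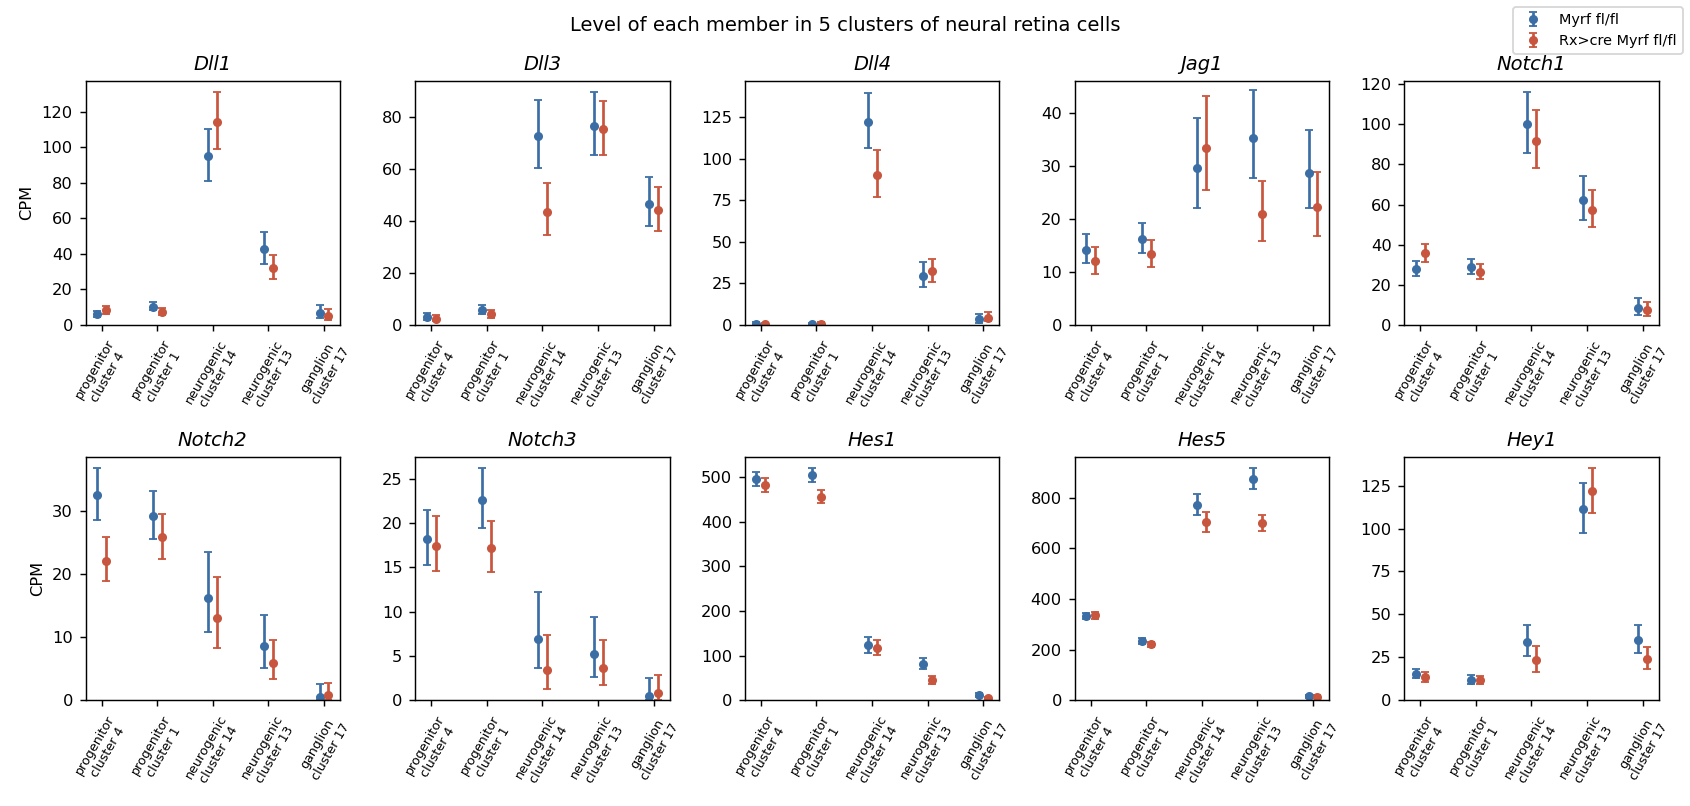
Each panel plots the CPM of 1 gene, from 0, in 5 clusters of neural retina cells, for control (blue) and mutant (red) with 95% Poisson intervals. Dll1, Dll4 and Notch1 peak in cluster 14 and Hey1 in cluster 13, whereas Hes1 is highest in the progenitor clusters.

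Retinal progenitor-like cells fell into 4 clusters. Hes1 was at 504 and 496 CPM in control clusters 1 and 4, and at 129 and 130 CPM in control clusters 3 and 5. Hes5 was at 234 and 332 CPM in control clusters 1 and 4, and at 97.5 and 46.6 CPM in control clusters 3 and 5. Clusters 3 and 5 were shallow, with control medians of 4877 and 4020 UMIs against 15673 and 20535 in clusters 1 and 4. The part of depth and RNA quality in these lower levels was not tested. By cell cycle phase, called after thinning each cell to 3000 UMIs, Hes1 in retinal progenitor-like cells was at 3.51, 3.55 and 3.45 UMIs per 10000 in G1, S and G2/M of the control. In the mutant the values were 4.09, 3.76 and 3.20 UMIs per 10000. These orders depended on the depth. At 5000 UMIs the control stood at 4.74 (4.29 to 5.23), 4.38 and 4.03 (3.79 to 4.28), and the mutant at 4.11, 4.43 and 3.86, so no order of Hes1 over the phases is read. Hes5 was lowest in G1 in both libraries, where control cells had 1.47 UMIs per 10000 (1.23 to 1.75) and mutant cells 1.47 (1.20 to 1.77), against 2.49 (2.28 to 2.72) and 2.23 (2.03 to 2.45) in G2/M. The control intervals of G1 and S overlapped (1.79 in S, 1.58 to 2.02). At 2000 and at 5000 UMIs Hes5 was again lowest in G1, with overlapping intervals of G1 and S in the mutant. Atoh7 was at 0.709 in G1 and 1.497 in G2/M of the control, but at 5000 UMIs its control value was 0.651 in G1 and 0.542 in S, so G1 was not lowest there.

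Shares of cells with at least 1 UMI gave the same order of classes when cells were thinned to 3000 UMIs. Hes1 was found in 52.3% (49.7 to 54.9, Clopper-Pearson) of control and 52.0% (49.5 to 54.5) of mutant retinal progenitor-like cells, and in 16.7% and 11.1% of neurogenic precursor-like cells. Hes5 was found in 31.9% and 30.1% of retinal progenitor-like cells, and in 54.1% (47.8 to 60.3) and 49.8% (44.3 to 55.4) of neurogenic precursor-like cells. The Dll1 share was 17.9% and 14.2% in neurogenic precursor-like cells, and 1.92% and 1.64% in retinal progenitor-like cells. As a background, red blood cell-like cells (unthinned medians 22476.5 and 22723.5 UMIs) had Hes1 in 2.25% and 0.484%, Hes5 in 1.12% and 1.21%, and Dll1 in 0 of 178 control cells, where 3 cells would be a share with a UMI of 1.69% (Clopper-Pearson limit 2.05%), and in 0.726% of mutant cells. The intervals of the Dll1 shares in retinal progenitor-like and red blood cell-like cells overlapped, while the Dll1 level was 7.28 CPM (6.13 to 8.59) against 0.237 CPM in the control and 6.64 CPM (5.54 to 7.90) against 2.24 CPM (1.42 to 3.37) in the mutant. Thinning left out 153 control and 157 mutant retinal progenitor-like cells, 40 and 27 neurogenic precursor-like cells, and 30 and 75 red blood cell-like cells. Without thinning, Hes1 was found in 69.0% and 70.6%, Hes5 in 48.8% and 49.4% and Dll1 in 6.53% and 5.11% of retinal progenitor-like cells.

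The members were next compared between cells with and without Dll1. Retinal progenitor-like and neurogenic precursor-like cells were thinned to 3000 UMIs and divided by whether a Dll1 UMI remained, which it did in 74 of 1713 control and 71 of 1850 mutant cells. Dll4 was at 0.586 UMIs per 10000 in control cells with Dll1 and 0.0976 in those without, a log2 ratio of 2.66 (1.58 to 3.49). In the mutant the ratio was 3.16 (2.14 to 3.97). Dll3 had log2 ratios of 2.65 (1.69 to 3.40) and 1.74 (0.42 to 2.61).

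Hes5 was at 9.10 UMIs per 10000 in control cells with Dll1 and 2.71 in those without, a log2 ratio of 1.75 (1.53 to 1.96), and 1.54 (1.30 to 1.76) in the mutant. Hes1 went the other way, with log2 ratios of -0.49 (-0.96 to -0.11) and -0.33 (-0.79 to 0.04). Notch1 had pooled log2 ratios of 0.95 (0.00 to 1.63) and 1.62 (0.84 to 2.22), whereas the intervals of Notch2, Notch3 and Jag1 included 0 in both libraries. The proneural gene Neurog2 had pooled log2 ratios of 3.12 and 2.84, and Atoh7 2.52 and 2.29. Atoh7 helped to name the neurogenic precursor-like class, so these pooled values also hold the difference between the classes. No value within a class is given for Neurog2 and Atoh7. Within retinal progenitor-like cells alone, where only 28 control and 25 mutant cells had Dll1, Hes5 was again higher in cells with Dll1, at 1.10 (0.53 to 1.54) and 1.63 (1.13 to 2.03), and no Dll4 UMI was left in the cells with Dll1. Within neurogenic precursor-like cells alone, with 46 cells with Dll1 in each library, Hes5 was at 0.69 (0.42 to 0.94) and 0.32 (0.03 to 0.58). The direction of Hes1 turned there, to 1.12 (0.34 to 1.80) and 1.78 (0.90 to 2.55), against the pooled values. Dll4 was at 0.61 (-0.48 to 1.47) and 1.32 (0.29 to 2.16) in that class. The clusters of neurogenic precursor-like cells differed in Dll1 and Dll4 level, as given above. The part of that difference in the values within the class was not tested. The pooled values of Notch1 and Dll3 were not resolved within a class. Notch1 was at 1.26 (-0.64 to 2.27) and 1.56 (-0.34 to 2.57) in retinal progenitor-like cells, and at -0.15 (-1.40 to 0.72) and 0.83 (-0.13 to 1.59) in neurogenic precursor-like cells. Dll3 was at 0.58 (-0.42 to 1.38) and 0.09 (-1.24 to 0.99) in neurogenic precursor-like cells, and retinal progenitor-like cells with Dll1 held 1 Dll3 UMI in the control and 0 in the mutant.

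**Figure D3:**
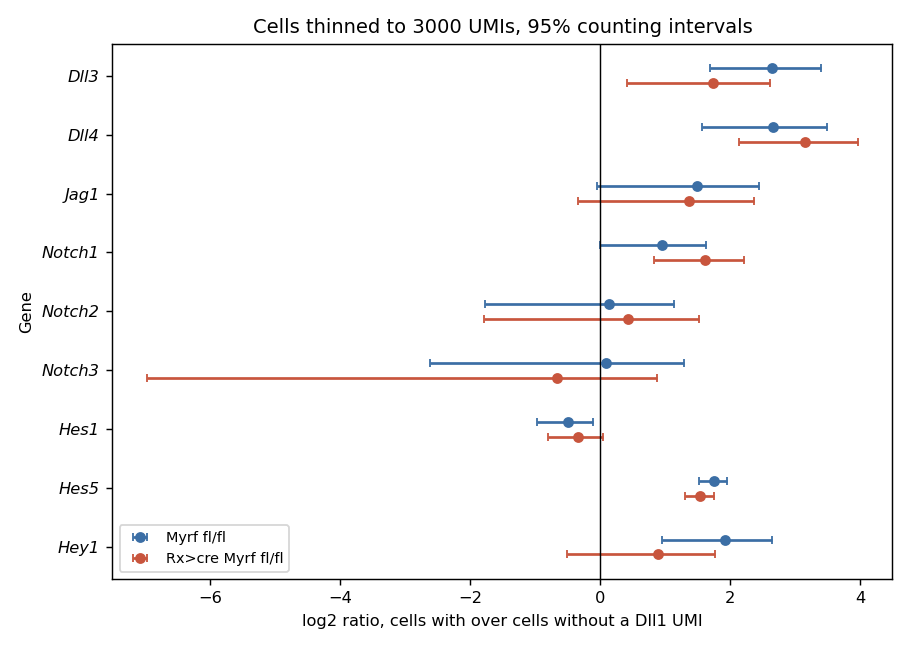
Each point is the log2 ratio of a gene (rows) between cells with and cells without a Dll1 UMI, among retinal progenitor-like and neurogenic precursor-like cells of the control (blue) and mutant (red), with 95% counting intervals. Dll3, Dll4 and Hes5 lie above 0 in both libraries, and Hes1 lies at -0.49 and -0.33.

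Genes with similar class profiles were named by a fixed rule, the highest Pearson r of log2(CPM + 10) among 12396 genes over the same 28 points. The 3 nearest to Dll1 were 9330198N18Rik (r = 0.87), Fam110a (r = 0.86) and Hes6 (r = 0.86), a bHLH gene of neurogenesis. Dll3 was nearest to Neurod1 (r = 0.98), a gene of photoreceptor and neuronal precursors, Wdr66 (r = 0.96) and Phf21b (r = 0.95). Dll4 was nearest to Mybl1 (r = 0.81), Olig2 (r = 0.79) and Neurod1 (r = 0.77), and Jag1 to 2810021J22Rik (r = 0.84), Sh3rf1 (r = 0.84) and Alcam (r = 0.82). Neurod1 and Olig2 were on the marker lists that named the classes, so their r values are not independent of the naming. Among the receptors, Notch1 was nearest to Tspan14 (r = 0.82), Pea15a (r = 0.76) and Jam2 (r = 0.76). Notch2 was nearest to Myof (r = 0.88), Sdc4 (r = 0.87) and Wls (r = 0.87), and Notch3 to Peg3 (r = 0.92), Ltbp3 (r = 0.87) and Spats2l (r = 0.86). Among the effectors, Hes1 was nearest to 3110082I17Rik (r = 0.83), Wdr60 (r = 0.82) and Cdca7 (r = 0.81). Hes5 was nearest to Gm27197 (r = 0.93), Zic5 (r = 0.92) and Zbtb16 (r = 0.91), and Hey1 to Camk2n2 (r = 0.87), Gm266 (r = 0.85) and Hnrnph3 (r = 0.85).

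The other 47 genes of the pathway showed which further parts were present. The 3 with the highest mean level in each role are given, with the control value first. Each is given in its highest class by the average of both libraries, so another class could be higher in a single library. Among ligand-like genes, Dlk1 was at 180 and 171 CPM in periocular mesenchyme-like cells, Dner at 22.1 and 22.5 CPM in ganglion cell-like cells and Jag2, the other Jagged ligand, at 51.8 and 34.1 CPM in surface ectoderm-like cells. Notch4, the fourth receptor, was at 31.6 and 27.8 CPM in endothelial-like cells. Psenen and Aph1a, subunits of the gamma-secretase that cleaves Notch, were at 319 and 264 CPM and at 60.2 and 77.4 CPM in amacrine or horizontal-like cells, and the protease Adam10 at 64.9 and 62.2 CPM in endothelial-like cells. In the control, Aph1a was higher in photoreceptor precursor-like cells, at 73.3 CPM, and in endothelial-like cells, at 68.8 CPM. Of the glycosyltransferases that modify Notch receptors, Mfng was at 225 and 235 CPM in neurogenic precursor-like cells, Poglut1 at 27.8 and 29.1 CPM in periocular mesenchyme-like cells and Rfng at 30.9 and 20.7 CPM in ganglion cell-like cells. Of the genes of inhibition and turnover, Dtx3 was at 183 and 121 CPM in RPE-like cells, Itch, a ubiquitin ligase, at 85.9 and 47.7 CPM in Schwann or neural crest-like cells and Dtx4 at 66.9 and 67.6 CPM in retinal progenitor-like cells. In the mutant, Itch was higher in photoreceptor precursor-like cells, at 58.5 CPM. In the nuclear complex, Snw1 was at 200.2 and 189 CPM and Spen at 62.0 and 35.9 CPM in amacrine or horizontal-like cells, and Rbpj, the DNA-binding partner of the receptors, at 159 and 145 CPM in neurogenic precursor-like cells. In the mutant, Snw1 was higher in neurogenic precursor-like cells, at 196 CPM, and Spen in photoreceptor precursor-like cells, at 49.3 CPM. Among other targets and related bHLH genes, Ccnd1, a cyclin of the G1 phase, was at 693 and 795 CPM in retinal progenitor-like cells, Hes6 at 1787 and 1647 CPM in neurogenic precursor-like cells and Sox9 at 139 and 75.5 CPM in RPE-like cells.

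Between genotypes, members were compared within each class where both libraries together held at least 50 UMIs, as the log2 ratio of mutant over control CPM with 1 UMI added to each sum. A member counted as past the limit when its ratio exceeded 1.5-fold. The retinal progenitor-like cells, the largest neural class, had 0 of 9 members past this limit, where 2.61% of all 11540 genes tested were past it. Hes5 stood at -0.02 (-0.08 to 0.04), Hes1 at -0.07 (-0.12 to -0.03), Notch1 at 0.08 (-0.09 to 0.26) and Dll1 at -0.13 (-0.49 to 0.22). Notch2 was lower, at -0.37 (-0.55 to -0.18), and so was Notch3, at -0.26 (-0.48 to -0.04). Of the stress genes, 4 of 10 were past 1.5-fold in this class and lower (Fos, Junb, Ier3 and Zfp36), and their part in the member ratios was not tested. Of the other pathway genes, 1 of 38 was past 1.5-fold, Jag2 at -0.63 (-1.40 to 0.07).

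Neurogenic precursor-like cells also had 0 of 9 members past 1.5-fold, against 4.07% of all genes tested. Dll1 was at -0.04 (-0.29 to 0.21) and Hey1 at 0.12 (-0.10 to 0.35), while Hes1 was at -0.45 (-0.67 to -0.24), Dll4 at -0.37 (-0.63 to -0.12) and Hes5 at -0.24 (-0.31 to -0.17). The difference was uneven between the 2 clusters of the class. Hes1 was at -0.86 (-1.21 to -0.53) in cluster 13 and at -0.06 (-0.35 to 0.22) in cluster 14, whereas Dll3 was at -0.03 (-0.33 to 0.28) in cluster 13 and at -0.73 (-1.16 to -0.31) in cluster 14. The difference between the clusters was not tested, and the class value of Hes1 rests on cluster 13, whose name is the less certain of the pair. Cell cycle genes moved with the members in this class. Of the G2/M genes tested, 51 of 53 had a ratio below 0, their median being -0.30 and 3 past 1.5-fold, and of the S phase genes 40 of 42, with a median of -0.20 and 3 past it. Gadd45g, of the proneural list, was at -0.72 (-0.86 to -0.58). Their part in the member ratios was not tested. Of the other pathway genes, 2 of 34 were past 1.5-fold, namely Heyl, which was higher at 0.79 (0.20 to 1.44), and Lfng at -0.62 on 136 control and 104 mutant UMIs.

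Ganglion cell-like cells had 1 of 6 members past 1.5-fold (4.39% of all genes tested), namely Hes1 with 56 control and 43 mutant UMIs and a ratio of -0.67 (-1.28 to -0.08). In the control, 21.4% of those UMIs came from 1 cell, and the ratio was -0.28 without doublet removal. Of the other pathway genes, 1 of 31 was past it and higher, Dlk1 at 2.27 (1.45 to 3.44) on 11 control and 70 mutant UMIs, of which 45.7% of the mutant UMIs came from 1 cell. Macrophage-like cells had 0 of 3 members past it (8.81% of all genes tested) and 1 of 18 other pathway genes, Adam10, which was higher at 0.75 (0.32 to 1.20).

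In RPE-like cells, the class with the most Myrf in the control, Notch2 was lower in the mutant. Control cells had 178 CPM (373 UMIs) and mutant cells 107 CPM (160 UMIs). The log2 ratio was -0.73 (-1.01 to -0.46) and stayed between -0.87 and -0.54 under the 13 alternatives that gave a value. The levels of the 2 libraries did not overlap in their intervals. Notch1 (-0.18), Jag1 (-0.32), Hes1 (-0.14) and Notch3 (0.17) had intervals that included 0. Hes5 was higher at 0.78 (0.18 to 1.40), but 72.1% of its 43 control and 83.0% of its 53 mutant UMIs came from 1 cell each. The Hes5 ratio ranged from -2.25 to 1.51 under the 13 alternatives that gave a value, so its direction was not stable. Thus 2 of 6 members were past 1.5-fold, where 11.0% of all 6921 genes tested were.

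Other measures moved with the class. The summed level of the 12 RPE markers was 13030 CPM in the control and 8856 CPM in the mutant, with Pmel the most abundant and 1 marker at 0 in each library. The summed neurogenic precursor markers were 173 and 476 CPM, led by Atoh7 at 119 and 359 CPM, of which 50.8% and 65.0% of the UMIs came from 1 cell each, and 27 of 42 G2/M genes were higher past 1.5-fold in the mutant. Their part in the Notch2 ratio was not tested. Median depth per cell was 3919 UMIs (control) and 3623 UMIs (mutant), against 11332 and 11154 UMIs over all kept cells. The class was a single shallow cluster, so leaving out shallow clusters gave no value for it. Among other pathway genes, 5 of 24 were past 1.5-fold in RPE-like cells. Sox9 was at 139 and 75.5 CPM, with a ratio of -0.87 (-1.21 to -0.56), Dtx3 at -0.59, Adam10, a protease that cleaves Notch, at -0.63 and Aph1c, a gamma-secretase subunit, at -0.66 (-1.62 to 0.15). Mib1, the ligase that drives ligand endocytosis, was higher at 0.73 (0.21 to 1.26).

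In periocular mesenchyme-like cells, whose Myrf level did not differ beyond counting error, the ligand Jag1 was lower in the mutant. Control cells had 700 UMIs of Jag1 at 32.5 CPM (30.1 to 35.0), and mutant cells 491 UMIs at 18.5 CPM (16.9 to 20.2). The log2 ratio was -0.81 (-0.98 to -0.64). The ratio stayed below -0.75 under all alternatives except the limit of 2000 UMIs per cell (1.71, on few UMIs), and was -0.84 in cells of female embryos and -0.80 in cells of male embryos. Hes5 was also past 1.5-fold, at -0.67 (-1.04 to -0.31), with 17.9% of the control UMIs in 1 cell, and stood at -0.13 without doublet removal. Its levels, 6.73 CPM in the control and 4.22 CPM in the mutant, lay below those of red blood cell-like cells (7.57 and 11.8 CPM). The part of background RNA in the Hes5 ratio was not tested. Jag1 and Hes5 together were 2 of 8 members, against 2.96% of all 12459 genes tested.

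The Jag1 difference was not the same in all 7 mesenchyme clusters. In cluster 16, led by Fmo1, Spp1 and Cxcl12 (137 control and 147 mutant cells), Jag1 had 125 CPM in the control and 53.4 CPM in the mutant, a ratio of -1.23 (-1.57 to -0.90). In cluster 6, led by cell division genes, it had 31.0 and 16.5 CPM, a ratio of -0.91 (-1.27 to -0.56). Clusters 2 and 19 had ratios of 0.04 (-0.74 to 0.88) and 0.08 (-0.78 to 0.96). Differences between clusters were not tested. Genes induced by stress and dissociation moved in the class as well, with 3 of 12 past 1.5-fold and all lower, namely Junb at -1.42 (-1.77 to -1.09), Egr1 at -0.85 (-1.07 to -0.64) and Fos at -0.73 (-0.98 to -0.48). The summed level of that list was 1194 CPM in control and 1230 CPM in mutant cells, with Jund its most abundant gene, and its part in the Jag1 ratio was not tested.

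Notch2, which like Notch3 had most of its UMIs in this mesenchyme, was lower in all 7 clusters, from -0.78 (-0.98 to -0.58) in cluster 11, led by Meox1 and Scx, to -0.25 in clusters 10 and 19. Cluster 11 had 158 control and 284 mutant cells. The class as a whole was at -0.37 (-0.43 to -0.30). Hes1 was at -0.04 (-0.09 to 0.01) on 5275 control and 6328 mutant UMIs. Of the other pathway genes, 3 of 42 were past 1.5-fold, against the 2.96% of all genes, and all were lower, namely Heyl at -1.13 (-1.44 to -0.84), Nrarp, a feedback inhibitor of Notch, at -0.81 (-1.40 to -0.26) and Hes7 at -0.71 (-1.38 to -0.06).

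**Figure D4:**
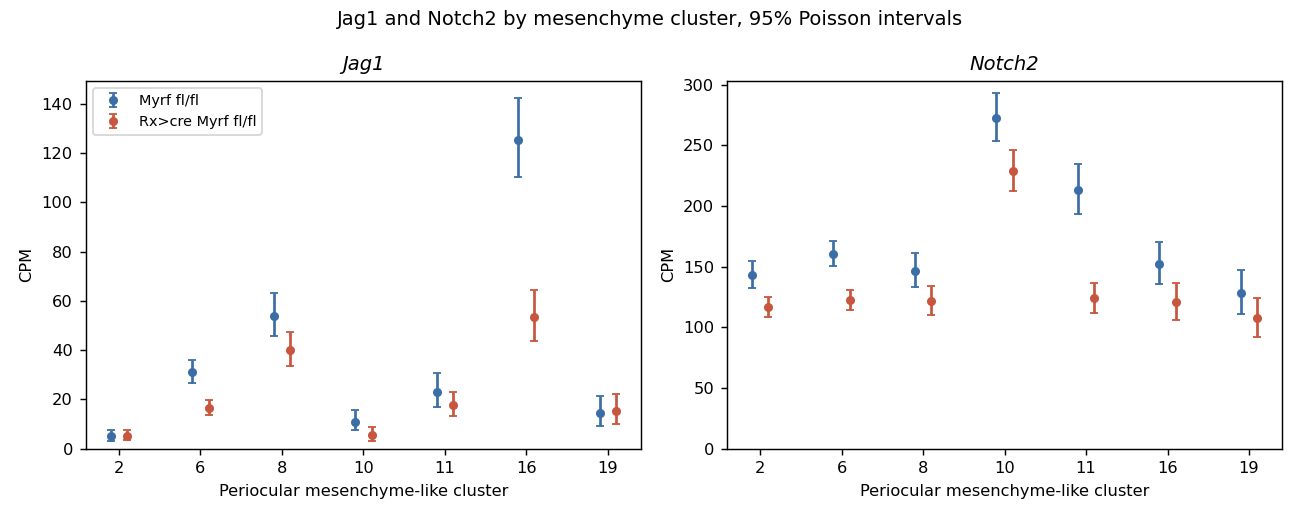
CPM of Jag1 (left) and Notch2 (right) in the 7 periocular mesenchyme-like clusters of the control (blue) and mutant (red), with 95% Poisson intervals and axes from 0. The largest gap in Jag1 is in cluster 16, from 125 to 53.4 CPM, while Notch2 is lower in the mutant in each cluster.

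Endothelial-like cells had 2 of 4 members past 1.5-fold, both lower (6.28% of all genes tested). Jag1 had 53 control and 20 mutant UMIs and a ratio of -1.36 (-2.22 to -0.64), which was -0.31 in cells of female and -1.33 in cells of male embryos. Hes1 had 119 CPM in the control and 76.7 CPM in the mutant, a ratio of -0.63 (-0.96 to -0.32). The Hes1 difference was lost when cells above 20000 UMIs were left out (0.00) and when each cell was weighted equally (-0.06). Dll4 was at -0.48 (-1.24 to 0.22) and Notch1 at -0.40 (-0.88 to 0.07). Other genes moved in this class as well. Of the proneural genes, 1 of 3 was past 1.5-fold, Atoh7 at -0.70 (-1.23 to -0.20), with 47.1% of its control UMIs in 1 cell. Of the G2/M genes tested, 46 of 49 had a ratio below 0, with a median of -0.20 and 4 past 1.5-fold. Their part in the member ratios was not tested. Of the other pathway genes, 3 of 22 were past 1.5-fold and lower, namely Ncstn, a gamma-secretase subunit, at -1.12 (-2.12 to -0.28), Dtx3 at -0.80 (-1.39 to -0.26) and Hes6 at -0.87 (-1.23 to -0.52), with 26.2% of the control Hes6 UMIs in 1 cell.

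In amacrine or horizontal-like cells all 5 members with enough UMIs were lower in the mutant past 1.5-fold, where 7.29% of all 3595 genes tested were past it. Hes5 had 299 UMIs in 51 control cells and 152 UMIs in 66 mutant cells, a ratio of -1.28 (-1.57 to -0.99). Hey1 was at -1.10 (-1.78 to -0.48), Hes1 at -0.91 (-1.50 to -0.36), Notch1 at -0.85 (-1.70 to -0.06) and Dll1 at -0.64 (-1.45 to 0.14). Atoh7, a gene of early precursors, was at 1882 CPM in the control and 850 CPM in the mutant, and the summed neurogenic precursor markers were 3630 and 2046 CPM. The summed amacrine and horizontal markers were 2713 CPM in the control and 2806 CPM in the mutant. The part of a different mix of precursor stages in the member ratios was not tested. Among cells of male embryos Hes5 was at -0.07, Hey1 at -0.10 and Hes1 at -0.18, and among cells of female embryos at -1.93, -1.76 and -2.24, whereas Notch1 was at -0.92 and -0.07 and Dll1 at -0.18 and -1.07 in the same order. These groups are small, and the difference between them was not tested. Lfng (-0.92) and Spen (-0.77), a corepressor partner of Rbpj, were the 2 of 11 other pathway genes past 1.5-fold.

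**Figure D5:**
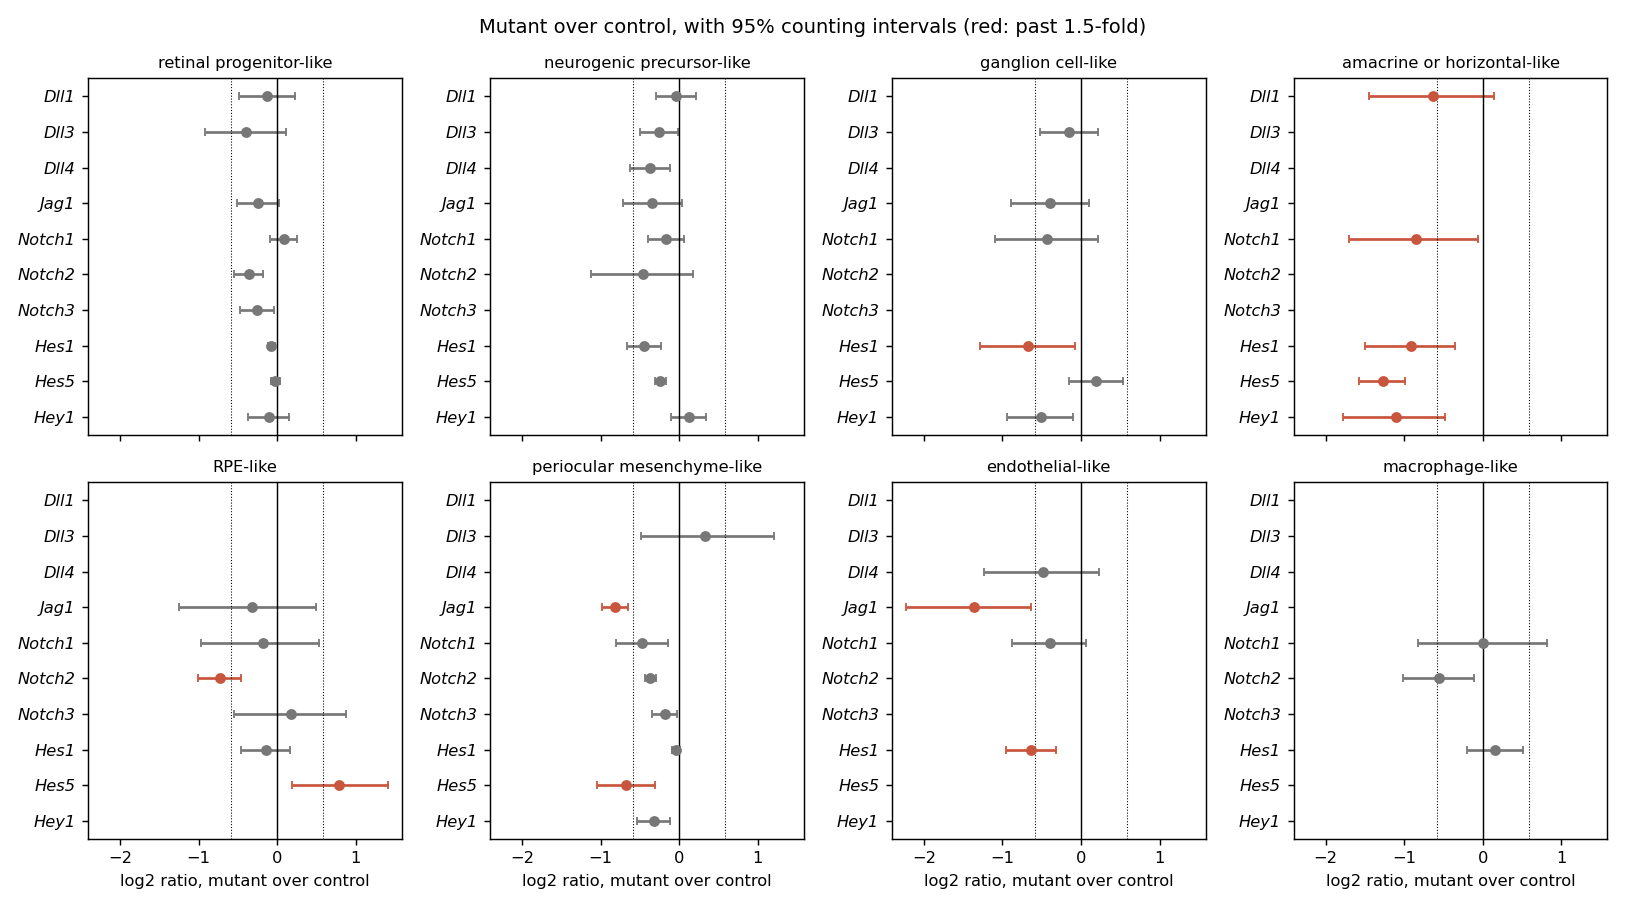
Log2 ratio of mutant over control for each member with at least 50 UMIs in 8 cell classes, with 95% counting intervals, dotted lines at 1.5-fold, and red for ratios past it. Amacrine or horizontal-like cells have 5 of 5 members past the limit, and retinal progenitor-like and neurogenic precursor-like cells have 0 of 9 each.

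The 8 classes described are those with at least 3 members that reached 50 UMIs, a limit chosen after the data were seen. Over them, 43 of 50 member ratios were below 0 and 7 above it, where 56.0% of 63245 ratios of all genes in the same classes were below 0. The intervals of 23 lower ratios and 1 higher ratio excluded 0. No such share over all genes is given here, so this count is not read as particular to the members. Within the 8 classes, Notch2 was lower in 5 of 5, with an interval that excluded 0 in 4. Jag1 was lower in 6 of 6, with an interval that excluded 0 in only 2. The median of all genes lay between -0.05 and -0.02 in these classes, and the median of the 50 member ratios was -0.33. The ratios of a gene in several classes come from the same pair of libraries, so they are not independent.

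In the other 6 classes few members reached 50 UMIs. Of 9 member ratios there, 5 were above 0 and 4 below. Past 1.5-fold were 1 of 2 members in red blood cell-like cells (36.4% of all genes tested), Hes5 at 0.61 (0.07 to 1.25), and 1 of 2 in surface ectoderm-like cells (11.8% of all genes tested), Notch2 at -0.67 (-1.33 to -0.06). Schwann or neural crest-like cells (10.5% of all genes tested) and muscle-like cells (9.46%) had 0 of 2 members past it, photoreceptor precursor-like cells (8.06%) 0 of 1, and melanocyte-like cells (7.40%) had no member with enough UMIs. Of the other pathway genes, 3 of 8 were past 1.5-fold in Schwann or neural crest-like cells, with Itch at -0.85, Dtx3 at -0.62 and Hes6 at 0.80. In surface ectoderm-like cells 3 of 10 were, with Sox9 at -1.51, Nrarp at -0.74 and Dlk2 at 0.74. In photoreceptor precursor-like cells 2 of 6 were, with Mfng at -0.80 and Dtx3 at -0.68, and their intervals included 0. Red blood cell-like cells had 2 of 9, Hes6 at 1.64 and Ccnd1 at 0.76, melanocyte-like cells 1 of 10, Adam10 at 0.80, and muscle-like cells 0 of 6.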

How the data were processed

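Single cells from e13.5 mouse eyes were profiled with 10X chemistry, 1 library per genotype. The deposited matrices hold UMI counts per gene and barcode, not normalized, which the authors made with Cell Ranger 7.1.0 (build mm10), and the study then used Seurat 4.1.1. Barcodes with fewer than 200 genes (5 control and 9 mutant) or more than 15% mitochondrial UMIs (515 and 371) were removed, as in the study's methods. Scrublet in scanpy 1.11.5 (expected rate 5%) then removed 51 control (0.924%) and 74 mutant (1.16%) doublets. The study's methods also name an upper limit of 2000 nCounts. Read as UMIs per cell, it would leave 1190 control and 1096 mutant cells, but whether that quantity was meant is not certain, and it was run only as an alternative. Cells were integrated across libraries and clustered in Seurat 5.3.0 (R 4.3.3) on 2000 variable features without the members and other pathway genes, 30 principal components and resolution 0.8. Clusters were named from marker lists, and sex was assigned per cell from sex-linked transcripts.

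Counts were summed per class and library in Python 3.11.15 (numpy 2.4.6, scipy 1.17.1). Levels carry exact Poisson intervals, ratios conditional binomial intervals and shares Clopper-Pearson intervals, all at 95%. Counting error is the only error they cover. Ratios had 1 UMI added to each sum. The ratio step was tested on simulated data. Named genes were the members, pathway genes past 1.5-fold in a class, the 3 pathway genes with the highest mean CPM in each role and the 3 nearest class profiles of each member. The members and lists were chosen with earlier results of these data known. Alternatives changed the doublet, UMI and mitochondrial limits, integration, resolution, sex, weighting of cells, fold, minimum UMIs and thinning depth.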

Additional observations from a re-analysis of the deposited data

Results flagged for a closer look

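Hes5 differed in direction between classes. Its log2 ratio of mutant over control was 0.78 in RPE-like cells and 0.61 (0.07 to 1.25) in red blood cell-like cells, but -1.28 in amacrine or horizontal-like and -0.67 in periocular mesenchyme-like cells. The difference between these classes was not tested. In RPE-like cells most Hes5 UMIs came from 1 cell in each library, and in control red blood cell-like cells 81.25% did. The periocular mesenchyme-like levels of Hes5 (6.73 CPM in the control and 4.22 CPM in the mutant) lay below the red blood cell-like levels (7.57 and 11.8 CPM). In red blood cell-like cells 36.4% of all 3168 genes tested were past 1.5-fold, 1101 of them higher and 51 lower, with a median log2 ratio of 0.41 over all genes.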

How the results depend on the processing

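Of 682 log2 ratios recomputed under alternatives, 581 moved by less than their counting error, 94 moved by more and 7 were counted as reversed. These 7 are the values listed next, and they do not include every change of sign. Among the other ratios, Notch2 in retinal progenitor-like cells was -0.37 in the main result and reached 0.50 under an alternative. Notch2 in periocular mesenchyme-like cells went from -0.37 to as high as 0.13, and Hey1 in ganglion cell-like cells from -0.51 to 0.24. Notch2 in RPE-like cells kept its direction. With the limit of 2000 UMIs per cell, an uncertain reading of the study's limit, Hes1 stood at 0.68 in endothelial-like and 0.19 in ganglion cell-like cells, Jag1 at 1.71 and Hes5 at 0.71 in periocular mesenchyme-like cells, and Hes5 at -2.25 in RPE-like cells. Hes5 in RPE-like cells was also -0.074 with a mitochondrial limit of 5% and -0.11 as a mean over cells. The cause was not tested.

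The counts of members past 1.5-fold moved in 45 of 128 alternatives. In RPE-like cells (2) the count was 1 with the 20000 UMI limit and with at least 100 UMIs, 4 as a mean over cells and 0 at 2-fold. In amacrine or horizontal-like cells (5) it was 3 without doublet removal, 2 with the mitochondrial limit of 5%, at 2-fold and with at least 100 UMIs, 1 in cells of female and 0 in cells of male embryos, where few members reached 50 UMIs. In endothelial-like cells (2) it was 0 with the 20000 UMI limit and in male cells, 1 in female cells, as a mean over cells, at 2-fold and with at least 100 UMIs, and 4 with at least 10 UMIs. In ganglion cell-like cells (1) it was 3 in female cells, and 0 without doublet removal, with either UMI limit, with the mitochondrial limit, without integration, at resolution 0.4, in male cells, at 2-fold, with at least 100 UMIs and without shallow clusters. In macrophage-like cells (0) it was 1 with the mitochondrial limit, in male cells, as a mean over cells and with at least 10 UMIs. In neurogenic precursor-like cells (0) it was 1 without doublet removal, in male cells, as a mean over cells and with at least 10 UMIs, 2 with the 20000 UMI limit and 3 in female cells. In periocular mesenchyme-like cells (2) it was 1 without doublet removal, with the 20000 UMI limit, in female cells and as a mean over cells, and 0 at 2-fold. In retinal progenitor-like cells (0) it was 2 with the 20000 UMI limit and in female cells.

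With other thinning depths, 32 of 120 values by cell cycle phase moved by more than their counting error, and with other depths or no thinning 44 of 60 shares of cells did. Of the levels by class, 45 of 188 moved under alternatives, and of the ratios between cells with and without Dll1, 6 of 54.

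Leaving out shared barcodes and leaving out shallow clusters were chosen after seeing the data. No paired analysis was possible because each genotype has 1 library, and for the same reason there is no result without a replicate and no test. Depth limits genes with few UMIs in small classes.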
